A study of Homo sapiens with 18 samples.

Results

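The genes described here encode the proteins of the 2 ribosomes of a human cell, the cytosolic ribosome and the mitochondrial ribosome, measured in a pair of triple-negative breast cancer cell lines. Members were taken by symbol from the array's platform table: RPL or RPS with a number and, where present, an A, L or X, the acidic stalk proteins and RPSA, and MRPL or MRPS with a number, leaving out pseudogenes, RPS4Y and the RPS6K kinases. The rule chose the member genes by name only and by no measured value. It found 120 genes among 14884 gene symbols, which lie on 130 of 53617 transcript clusters, the units of the array that stand for 1 transcript region each. Where a gene had more than 1 transcript cluster, as 7 members did, the cluster with the highest mean signal over the 18 arrays was used. The 120 genes fall into 31 of the cytosolic large subunit, 18 of the cytosolic small subunit, 48 of the mitochondrial large subunit and 23 of the mitochondrial small subunit. A further 35 genes that match the rule in RefSeq had no transcript cluster carrying their symbol alone and were not analysed here, among them RPL3, RPL5, RPL13A, RPS4X, RPSA, the stalk genes RPLP0, RPLP1 and RPLP2, and MRPL12.

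HCC1806 and HCC1395 are established triple-negative lines, and the study asked which genes respond when PART1, a long non-coding RNA, is targeted with GapmeRs, antisense oligonucleotides that direct RNase H to the RNA they bind. Cells of each line were treated for 48 h either with a negative control GapmeR or with 1 of a pair directed at PART1, called GapmeR 1 and GapmeR 2, and total RNA of each sample was put on 1 Affymetrix Human Gene ST array, 3 arrays for each of the 6 groups. No group was left without oligonucleotide, so "control" below means cells that had received the negative control GapmeR, and the baseline is the comparison of these control arrays between the lines. Values are log2 signals after RMA, a normalization that gives all arrays nearly the same distribution, with array medians between 4.04 and 4.13. The lines carried most epithelial and all mesenchymal markers measured in opposite order: EPCAM, KRT18 and KRT19 were higher in HCC1806 by 6.44, 3.15 and 5.32 on the log2 scale, and VIM, ZEB1 and FN1 were at -4.19, -4.15 and -4.58. Of 4 epithelial markers measured, these 3 were called. Of 2 basal epithelial markers measured, 1 was called, higher in HCC1806. Of markers of other cells, the macrophage and lysosome gene CD68 had mean control signals of 9.45 and 5.58 in HCC1806 and HCC1395. In the same order, the fibroblast gene DCN was at 2.53 and 4.34 and was called lower in HCC1806. The endothelial gene PECAM1, at 2.34 and 2.98, was below the array medians in both lines and was not called. Their part in the results was not tested. In these bulk cultures a difference in some cells cannot be told apart from a smaller one in all of them. The targeted RNA itself, PART1, was at 5.45 to 5.76 on the HCC1395 control arrays, 4.72 to 5.36 with GapmeR 1 and 4.70 to 5.29 with GapmeR 2. These differences, -0.60 ± 0.20 and -0.66 ± 0.20, were not called (limma adjusted p = 0.895 and 0.701). In HCC1806 PART1 lay at 3.69 to 3.94 on control arrays, 3.68 to 4.07 on the arrays labelled GapmeR 1 and 3.87 to 4.47 on those labelled GapmeR 2. These control values were below all array medians, where a fall may not be measurable. In that line the labels could therefore not be checked by a lower PART1 signal. By QPCR, the paper reports lower PART1 after GapmeR treatment in both lines.

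Cytosolic ribosomes make the proteins encoded in the nucleus. Their 40S subunit reads the mRNA and their 60S subunit joins the amino acids, and most of their protein mRNAs begin with a run of pyrimidines, the terminal oligopyrimidine (TOP) tract, through which mTORC1 and the protein LARP1 set their translation. Mitochondrial ribosomes make a small set of membrane subunits of the respiratory chain and the ATP synthase. Their proteins are all encoded in the nucleus, made in the cytosol and imported, so both sets of genes are read from nuclear chromosomes and measured by the same array.

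A pyrimidine run at the start site was more frequent among the cytosolic than among the mitochondrial genes, and start-site windows of genes described below, higher and lower in HCC1806, are shown to let both kinds be compared. Each window was read from the RefSeq promoter table of GRCh38.p14 and holds 15 bases before the annotated start and 15 from it, 5′ to 3′ on the gene's own strand. Capitals mark an unbroken pyrimidine run that begins with a C at the start itself, with at least 4 pyrimidines after it. The first set holds cytosolic genes with such a run that were higher in HCC1806, the second those that were lower in HCC1806, the third cytosolic genes without a run and the fourth mitochondrial genes.
RPL35A (chr3:197950175-197950204, plus strand): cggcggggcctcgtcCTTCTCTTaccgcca
RPL36 (chr19:5690280-5690309, plus strand): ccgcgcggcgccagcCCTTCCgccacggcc
RPL39 (chrX:119791616-119791645, minus strand): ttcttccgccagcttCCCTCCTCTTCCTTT
RPL28 (chr19:55385917-55385946, plus strand): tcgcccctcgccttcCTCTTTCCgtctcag
RPL29 (chr3:51995881-51995910, minus strand): caccgcagcccctttCTCTTCCggttctag
RPS6 (chr9:19380222-19380251, minus strand): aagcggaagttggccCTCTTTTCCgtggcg
RPL27 (chr17:42998404-42998433, plus strand): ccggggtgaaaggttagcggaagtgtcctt
RPS28 (chr19:8321481-8321510, plus strand): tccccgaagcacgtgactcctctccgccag
RPS27L (chr15:63157463-63157492, minus strand): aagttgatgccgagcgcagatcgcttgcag
MRPS9 (chr2:105038054-105038083, plus strand): ccccctcacccctccggtcctggagctccc
MRPL43 (chr10:100987483-100987512, minus strand): gaagcctcgaggtttagtcccgcccccctc
MRPL17 (chr11:6683326-6683355, minus strand): ccggctctaccttccagtttccagttccgg
MRPS25 (chr3:15065301-15065330, minus strand): ctcctgtgcgtctgcgcgggaagtggaacc
MRPL16 (chr11:59810764-59810793, minus strand): tgaacacaacttccggccccactgagcggt
A run was found at the start of 28 of the 44 cytosolic genes with an entry in the table (63.6%), at 5 of 63 mitochondrial genes (7.94%) and at 729 of 15843 protein-coding genes (4.6%). The runs shown are 8 bases long in RPL35A and RPL28, 7 in RPL29, 6 in RPL36 and 9 in RPS6, and the RPL39 run fills all 15 bases of its window. The genes shown that were lower in HCC1806 thus had runs of 7 to 9 bases, and both the shortest and the longest run shown stand in higher genes. Whether run length goes with the line difference was not tested. The annotated start is 1 position per gene, so a gene without capitals may still start at a pyrimidine in some of its transcripts.

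The baseline comparison asks how the lines differ before PART1 is targeted. Ribosomal protein genes of both kinds had higher signals in HCC1806 more often than lower ones. Of the 120 members, 75 were higher in HCC1806 and 10 lower by limma's moderated test at a Benjamini-Hochberg adjusted p under 0.05, where 14.4% of all transcript clusters were called higher and 14.9% lower. The median difference (HCC1806 minus HCC1395) was 0.56 on the log2 scale for the members and -0.001 for all transcript clusters. At 30 members HCC1806 was more than 2-fold higher, and at 1, MRPL35, more than 2-fold lower. How many of all transcript clusters differed by more than 2-fold was not counted. Of all 53617, 5627 were higher and 5888 lower by more than 1.6-fold with p below 0.05 by limma before adjustment. In either direction, 53 of the 120 members met these 1.6-fold limits. The members are bright genes, and bright genes are called more often in both directions: among 6092 transcript clusters of protein-coding genes with a mean signal of at least 5.77, the members' 10th percentile, 33.6% were called higher and 33.2% lower, with a median difference of 0.003. Taken array by array, all 3 HCC1806 controls lay above all 3 HCC1395 controls at 82 members and below them at 14, and the arrays overlapped at 24 (20.1% and 20.6% of all transcript clusters were separated in these directions).

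All 4 classes showed the shift, as the plot of the 120 baseline differences shows. In the cytosolic large subunit 20 genes were higher and 2 lower of 31, with a median difference of 0.45, and in the cytosolic small subunit 10 were higher and 2 lower of 18, with a median of 0.47. In the mitochondrial large subunit 32 were higher and 4 lower of 48 (median 0.63), and in the mitochondrial small subunit 13 were higher and 2 lower of 23 (median 0.62). Within each class the differences were spread widely, with lower and upper quartiles of 0.11 and 1.01 in the cytosolic large subunit and of 0.19 and 1.04 in the mitochondrial large subunit. The spread between arrays was smaller than that, since the median SD within a group was 0.13 over the members, against 0.22 over all transcript clusters. With all 9 arrays of each line, GapmeR arrays included, 86 members were higher in HCC1806 and 12 lower, and the shares over all transcript clusters also rose, to 21.6% and 21.7%. The 10 lower calls at baseline came down to 6 without HCC1806 control 1, without HCC1395 control 1 or without HCC1395 control 3, while the higher calls stayed between 65 and 74 without any single control array.

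**Figure D1:**
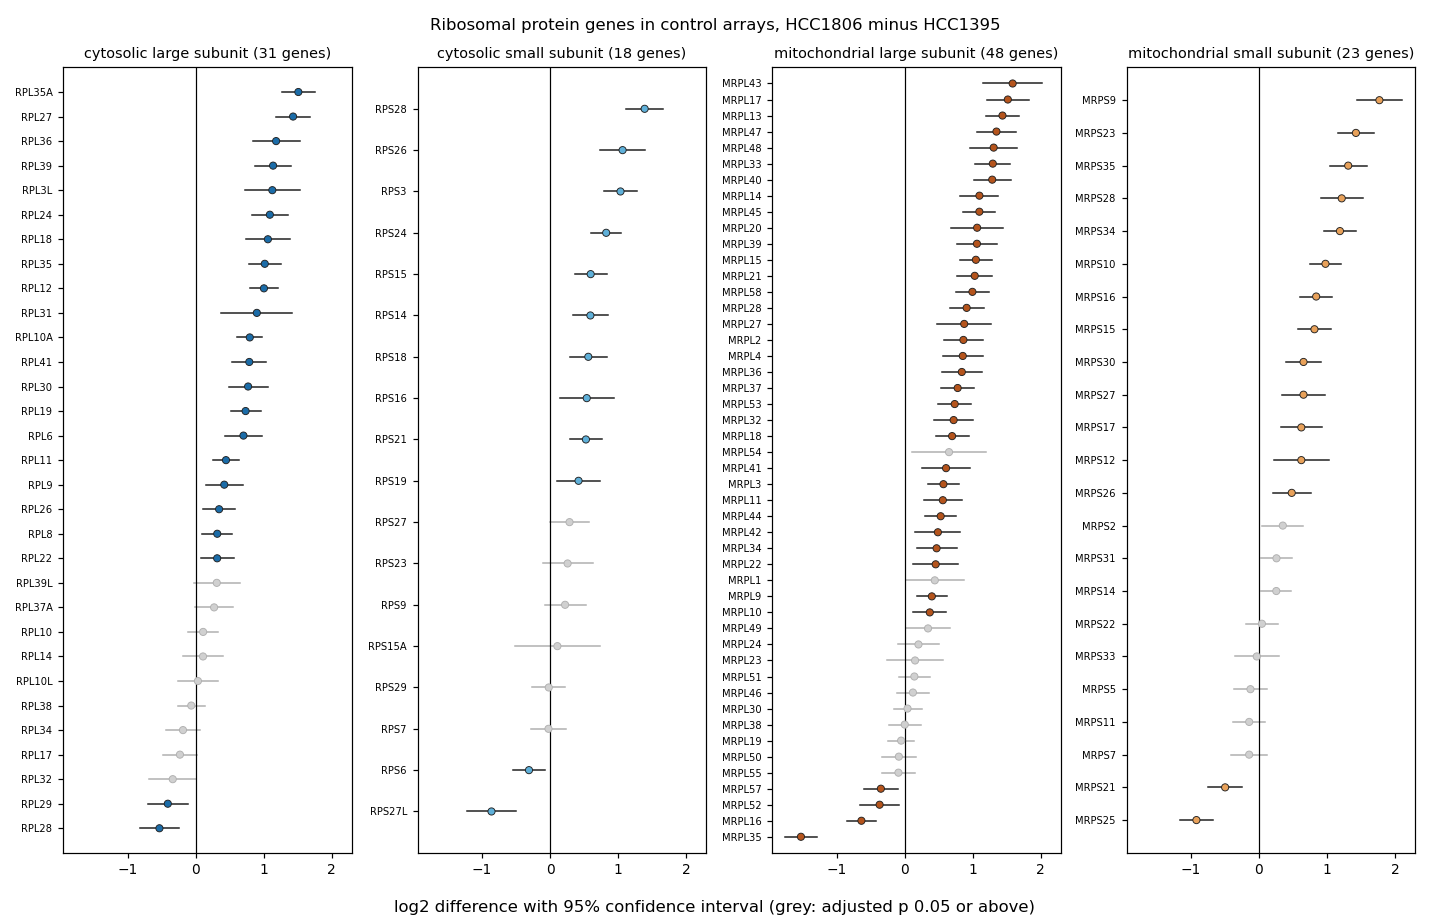
Log2 difference of each of the 120 ribosomal protein genes between HCC1806 and HCC1395 control arrays (3 against 3), in 4 panels by class, with bars for the 95% confidence interval and grey for an adjusted p of 0.05 or above. Most genes of every class lie to the right of 0, from 1.77 at MRPS9 down to -1.52 at MRPL35.

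Among cytosolic genes the largest difference was that of RPL35A, a large-subunit protein whose gene is mutated in some patients with Diamond-Blackfan anaemia. Its log2 signal was 8.11, 8.42 and 8.45 on the HCC1806 control arrays and 6.78, 6.88 and 6.78 on the HCC1395 control arrays, a difference of 1.51 ± 0.12 (SE), or 2.85-fold, with a limma adjusted p of 2.82e-08. RPL27, another large-subunit protein, read 9.38, 9.46 and 9.73 against 8.17, 8.05 and 8.06 (1.43 ± 0.12, adjusted p = 5.32e-08 by limma). In both genes the lowest HCC1806 array was more than a log2 unit above the highest HCC1395 array. The small-subunit gene RPS28 read 11.41, 11.51 and 11.71 against 10.22, 10.11 and 10.13 (1.39 ± 0.13, adjusted p = 2.08e-07 by limma), although its transcript cluster carries an ID that lies among clusters of chromosome 11 and not among those of chromosome 19, where RefSeq places the gene. RPL36, of the large subunit, was at 8.14, 8.12 and 8.34 in HCC1806 and at 7.06, 7.13 and 6.86 in HCC1395 (1.18 ± 0.16, adjusted p = 2.12e-05). The arrays of the lines did not overlap at any of these 4 genes.

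The 4 cytosolic genes that were lower in HCC1806 had smaller differences. RPS27L, which encodes a paralogue of RPS27 and is a known p53 target, read 4.58, 4.97 and 4.93 on the HCC1806 arrays and 5.79, 5.47 and 5.81 on the HCC1395 arrays, a difference of -0.86 ± 0.17 with a limma adjusted p of 6.41e-04. RPL28 read 6.58, 6.71 and 6.75 against 7.18, 7.22 and 7.23 (-0.53 ± 0.13, adjusted p = 0.0054), and RPL29 read 6.22, 6.15 and 6.16 against 6.62, 6.49 and 6.65 (-0.41 ± 0.14, adjusted p = 0.0315). RPS6, the small-subunit protein that S6 kinases phosphorylate, read 7.54, 7.61 and 7.73 against 7.92, 7.93 and 7.97 (-0.31 ± 0.11, adjusted p = 0.0396). At each of these genes the 3 HCC1395 arrays were all above the 3 HCC1806 arrays. The calls of RPL29 and RPS6 did not survive the loss of most single arrays. RPL29 was no longer called without any control array other than HCC1395 control 2 (-0.38 to -0.43), nor RPS6 without any other than HCC1806 control 3 (-0.27 to -0.32).

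Mitochondrial genes held the widest differences in both directions. MRPS9, of the mitochondrial small subunit, read 7.89, 7.90 and 7.99 in HCC1806 and 6.37, 5.97 and 6.14 in HCC1395, which is 1.77 ± 0.16 on the log2 scale or 3.41-fold (limma adjusted p = 1.46e-07). MRPL43 read 6.35, 7.05 and 6.89 against 4.98, 4.95 and 5.60 (1.59 ± 0.21, adjusted p = 1.09e-05), the most uneven arrays of these 4 genes. The large-subunit gene MRPL17 was at 7.65, 8.21 and 8.23 against 6.58, 6.59 and 6.36 (1.52 ± 0.14, adjusted p = 3.17e-07). Its first HCC1806 control array was its lowest in that line but still a log2 unit above HCC1395. MRPL13 read 7.70, 7.96 and 8.09 against 6.45, 6.52 and 6.47 (1.44 ± 0.12, adjusted p = 4.94e-08).

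In the other direction, MRPL35 had the lowest value of all members. Its signal was 7.47, 7.35 and 7.71 on the HCC1806 controls and 9.04, 9.06 and 9.0 on the HCC1395 controls, a difference of -1.52 ± 0.11 or 2.87-fold (limma adjusted p = 1.24e-08). MRPL35 encodes a large-subunit protein found in the central protuberance of the mitochondrial ribosome. MRPS25 read 6.82, 7.18 and 6.97 against 8.0, 7.83 and 7.91 (-0.92 ± 0.12, adjusted p = 9.36e-06), and MRPL16, the homologue of a bacterial large-subunit protein, read 7.72, 7.70 and 7.75 against 8.35, 8.46 and 8.26 (-0.63 ± 0.10, adjusted p = 7.91e-05). MRPS21 was at 10.26, 10.10 and 10.28 against 10.75, 10.80 and 10.59 (-0.50 ± 0.12, adjusted p = 0.00375). The lines were separated at all 4 genes, and MRPL52 and MRPL57, at -0.37 and -0.35, were the other mitochondrial genes called lower.

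**Figure D2:**
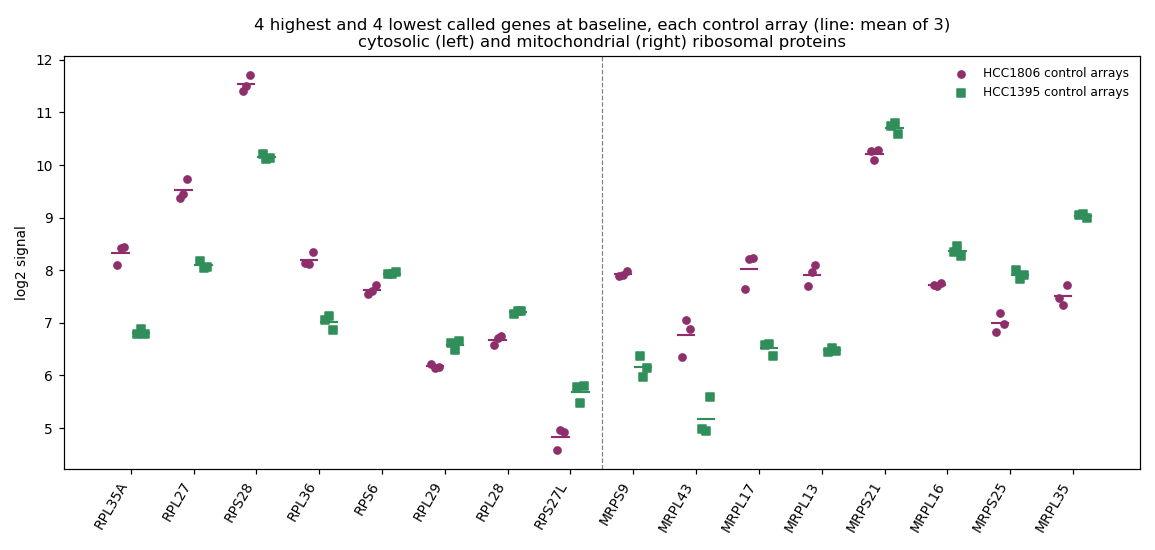
Log2 signal on each control array (points) and group mean (lines) for 16 genes, the 4 highest and the 4 lowest of those called at baseline among cytosolic (left) and among mitochondrial (right) genes, HCC1806 as circles and HCC1395 as squares. The arrays of the lines do not overlap at any gene shown, and the gap between the nearest arrays of the lines is widest at MRPS9, RPL35A and, the other way round, MRPL35.

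Several members have a close paralogue, and their values are set side by side here. RPL39, whose protein lines the exit tunnel of the 60S subunit, read 8.99, 8.61 and 8.94 in HCC1806 and 7.86, 7.48 and 7.77 in HCC1395 (1.14 ± 0.12, adjusted p = 1.51e-06 by limma). Its paralogue RPL39L, best known from the testis, read 6.23, 6.45 and 6.01 against 5.89, 6.11 and 5.76, so that the arrays overlapped (0.31 ± 0.16, adjusted p = 0.18). RPL39 also has another, dimmer transcript cluster, at which the difference was 0.24 ± 0.22 (adjusted p = 0.49). RPL3L, the striated-muscle paralogue of RPL3, read 6.14, 5.68 and 6.32 against 4.95, 5.07 and 4.74 (1.13 ± 0.19, adjusted p = 1.72e-04). RPL10L, the testis paralogue of RPL10, was the only member under the array median on all 18 arrays, while 115 members lay above it on all of them. Its control arrays read 2.59, 2.65 and 2.25 in HCC1806 and 2.72, 2.36 and 2.32 in HCC1395, a difference of 0.03 ± 0.14 with an adjusted p of 0.908. RPS27, the partner of RPS27L, was at 11.18, 11.03 and 11.29 against 10.94, 10.91 and 10.79 (0.29 ± 0.14, adjusted p = 0.146), so its value was above 0 and that of RPS27L below it. Ribosomal protein genes have many processed copies in the genome, and the array's probes may not tell a gene from such a copy or from a close paralogue.

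Of other well-known members, RPL11, which binds MDM2 when ribosome assembly is disturbed, read 10.55, 10.62 and 10.65 against 10.19, 10.14 and 10.14 (0.45 ± 0.09, limma adjusted p = 0.00102). RPS19, the gene most often mutated in Diamond-Blackfan anaemia, read 9.05, 9.21 and 9.30 against 8.68, 8.79 and 8.83 (0.42 ± 0.15, adjusted p = 0.0441). RPL22, deleted in some tumours, read 4.56, 4.51 and 4.74 against 4.43, 4.22 and 4.21 (0.32 ± 0.12, adjusted p = 0.0498). The RPS19 and RPL22 calls sit close to the threshold. That of RPS19 was lost without any control array other than HCC1806 control 1 (0.36 to 0.45), and that of RPL22 without any other than HCC1395 control 1 (0.25 to 0.36). MRPS12, a small-subunit protein near the decoding site of the mitochondrial ribosome, read 6.28, 6.52 and 6.10 against 5.68, 5.77 and 5.59 (0.62 ± 0.19, adjusted p = 0.0202), and its call was lost without HCC1806 control 2 (0.51) or without HCC1395 control 3 (0.58).

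Cytosolic genes with and without the start-site run are set side by side here. The 28 cytosolic genes with a run had a median difference of 0.53 and 18 of them were called higher, and the 16 without one had a median of 0.43 with 9 called higher. The 58 mitochondrial genes without it had a median of 0.59. The core letters of an ETS site, CCGGAAG, were found on either strand of the promoter (250 bases before the start to 50 after it) in 42.9% of mitochondrial and 29.5% of cytosolic genes against 14.2% of all protein-coding genes, and those of a YY1 site, AAGATGGC, in 27.0%, 9.09% and 3.91%. The median line difference with and without the ETS letters was 0.74 and 0.51 in mitochondrial genes and 0.45 and 0.54 in cytosolic genes, and 17 of 27 mitochondrial genes with them and 22 of 36 without them were called higher. These are matches of letters and not bound sites.

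The values of the members went with those of their neighbours on the chromosome. For each member the median difference was taken over its nearest protein-coding genes measured, up to 5 on each side. Across the 120 members the member's own difference and that of its neighbours correlated with a Pearson r of 0.58 and a Spearman rho of 0.58, given as a description, since neighbouring members share neighbours and all points come from the same 6 arrays. The 64 members with a neighbours' median above 0 had a median difference of 0.83, and the 56 others one of 0.23. Still, 106 of the 120 members were above the median of their neighbours. At MRPL35, on chromosome 2, 6 of 10 neighbours were called lower in HCC1806, with a median of -0.81. PTCD3, a gene near MRPL35 that encodes a protein of the mitochondrial small subunit, was at -1.50. RPL35A lies near the end of chromosome 3, and 5 of its 6 neighbours were higher (median 0.81). At RPS27L 5 neighbours were lower (median -0.62), and at MRPS25 4 were (median -0.34). MRPS9 and MRPL13, by contrast, had neighbours at 0.20 and -0.26. By chromosome, all 6 members on chromosome 6 were higher, with a median of 0.83 against 0.09 for the other protein-coding genes measured there. So were all 5 on chromosome 8 (1.05 against -0.002), all 3 on chromosome 10 (0.84 against 0.21) and the 2 on chromosome 20 (0.50 against 0.05). The single members on chromosomes 21 and 22 were higher too. None of the 8 members on chromosomes 13, 14 and 15 was, nor the 1 on chromosome 18. The other genes there had medians of 0.05, -0.26, -0.11 and -0.17. The chromosomes named so far are those on which all or none of the members were called higher. The chromosomes with the most members were mixed. Called higher were 9 of 12 on chromosome 19, 8 of 11 on chromosome 17 and 6 of 11 on chromosome 1. On chromosome 2 it was 5 of 11, and on chromosome 3 it was 4 of 10, with 2 lower. The share of other genes called on each chromosome was not counted. The part that DNA copy number has in these differences was not tested.

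**Figure D3:**
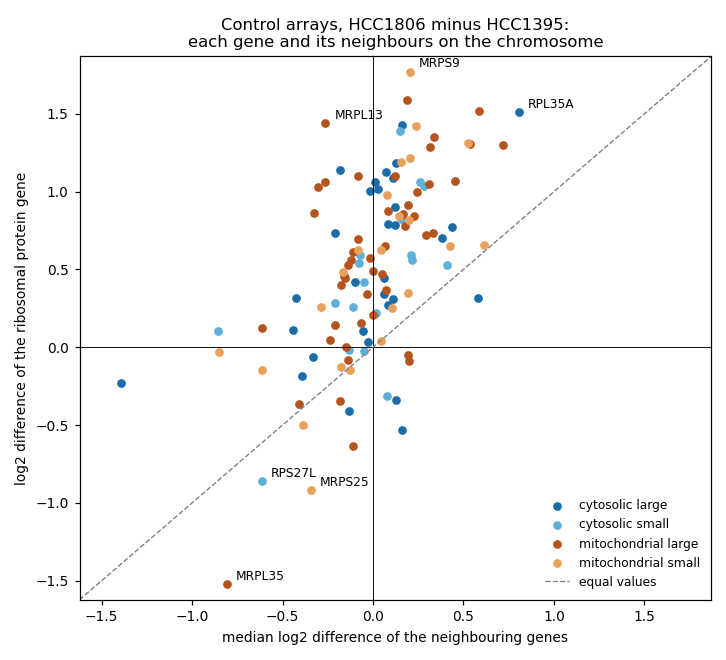
Each point is 1 of the 120 ribosomal protein genes, coloured by class, with its log2 difference between HCC1806 and HCC1395 control arrays on the y axis and the median log2 difference of up to 5 measured protein-coding neighbours on each side on the x axis. The points rise from left to right (Pearson r 0.58), and 106 of the 120 lie above the dashed line of equal values.

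Genes that build, control or work with ribosomes were set beside the members, from lists of known factors. Ribosome assembly genes, which cut and modify ribosomal RNA and fit the proteins to it, had 20 of the 43 measured higher in HCC1806 and 5 lower, with a median of 0.30, where the bright protein-coding transcript clusters above had 33.6% higher and 33.2% lower. NOP10, part of the complexes that make pseudouridine, had mean control signals of 9.35 and 7.65 (1.70 ± 0.12, limma adjusted p = 1.37e-08), NAT10, which acetylates the small-subunit RNA, 10.27 and 8.95 (1.32 ± 0.10, adjusted p = 3.80e-08), and EIF6, which keeps new large subunits from joining too early, 8.52 and 7.01 (1.51 ± 0.13, adjusted p = 1.51e-07). Cytosolic translation factors were split, with 3 higher and 4 lower of 14 (median -0.02), neither share above that of the bright transcript clusters. EEF1G, an elongation factor subunit, was at 0.74 ± 0.13 and the initiation factors EIF5 and EIF5B were at 0.63 ± 0.11 and -0.69 ± 0.11. Among 8 regulators of ribosomal protein mRNA, 2 were higher and 3 lower. RHEB, which activates mTORC1, was at -1.59 ± 0.14 and TSC2, which holds RHEB in check, at -1.17 ± 0.14, while TIAL1, a protein that binds TOP mRNAs, was at 0.65 ± 0.12. Mitochondrial translation factors had 5 higher and 4 lower of 18 (median 0.03), with LRPPRC, which stabilises mitochondrial mRNAs, at 0.88 ± 0.12, the release factor MTRF1 at -0.83 ± 0.11 and PTCD3 at -1.50 ± 0.10. Of 6 ribosomal protein paralogues that the naming rule leaves out, MRPS18B (1.51 ± 0.13) and MRPS18A (0.69 ± 0.11) were higher and RPL22L1 (0.38 ± 0.14) was not called. The counts of all these lists are to be read beside the shares of the bright transcript clusters, 33.6% higher and 33.2% lower. The difference between these lists and the members was not tested.

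Each GapmeR was next compared with the controls of its own line, to ask whether ribosomal protein genes respond to the oligonucleotides against PART1. No member was called with either GapmeR in either line at a limma adjusted p under 0.05, and neither was any of the 53617 transcript clusters (0% in each of the 4 comparisons), so this says nothing about ribosomal protein genes in particular. None passed the study's threshold either, 1.6-fold at an unadjusted p under 0.05, which 1.26% and 1.04% of all transcript clusters passed in HCC1806 with GapmeR 1 and GapmeR 2 and 0.955% and 1.06% in HCC1395. At an unadjusted p under 0.05 alone there were 3 and 1 members in HCC1806 (5.97% and 5.07% of all transcript clusters) and 1 and 1 in HCC1395 (5.39% and 6.73%). The confidence intervals set the bound: for 114 and 116 of the 120 members in HCC1806 and for 119 and 117 in HCC1395 the 95% interval of the difference lay within 1.6-fold of no change.

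**Figure D4:**
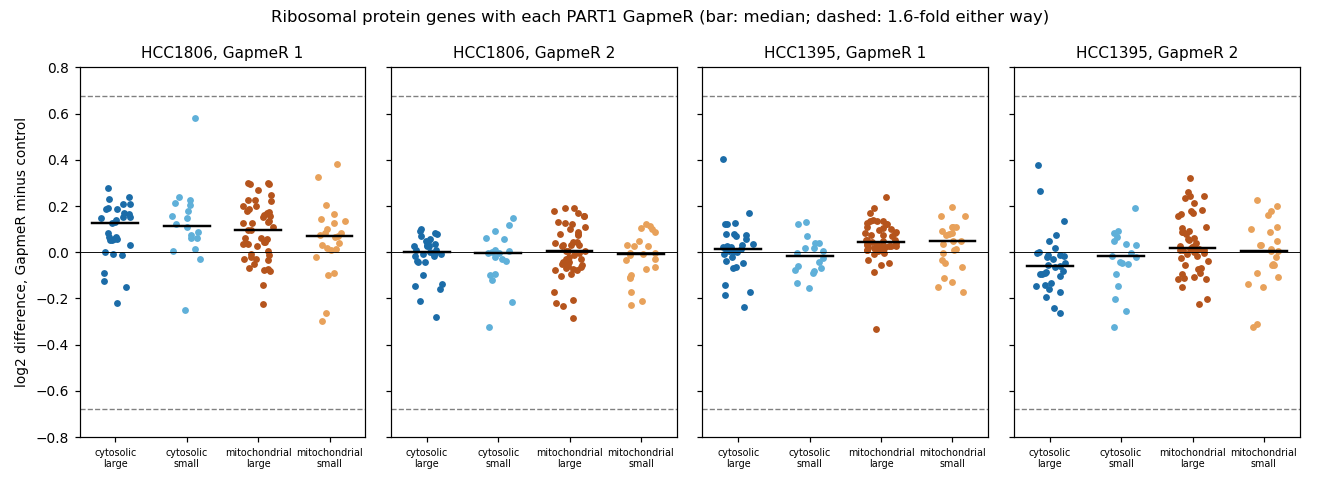
Log2 difference of each ribosomal protein gene between GapmeR and control arrays (3 against 3), 1 panel for each line and GapmeR, with points by class, bars for class medians and dashed lines at 1.6-fold either way. All points lie inside the dashed lines, and the class medians run from -0.06 to 0.13.

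With GapmeR 1 in HCC1806 most values were slightly above the control mean: 94 of the 120 differences were above 0, with medians of 0.13, 0.12, 0.10 and 0.07 in the cytosolic large, cytosolic small, mitochondrial large and mitochondrial small classes. The median deviation of the members was 0.14, 0.06 and 0.10 on the 3 GapmeR 1 arrays and -0.09, 0.03 and 0.07 on the 3 control arrays, so the groups overlapped. The brightest transcript clusters were also above 0 on these GapmeR 1 arrays, with median deviations of 0.04, 0.04 and 0.01. The share of transcript clusters above 0 was not counted, and the difference between the members and other bright genes was not tested. The members with the smallest p-values were MRPS34, MRPL40 and MRPS12. MRPS34, a small-subunit protein, read 8.90, 8.71 and 8.72 with GapmeR 1 and 8.28, 8.52 and 8.55 on control arrays (0.33 ± 0.13, limma adjusted p = 0.836). MRPL40 read 7.57, 7.62 and 7.5 against 7.06, 7.37 and 7.37 (0.30 ± 0.13, adjusted p = 0.836), and MRPS12 read 6.83, 6.79 and 6.43 against 6.28, 6.52 and 6.10 (0.38 ± 0.17, adjusted p = 0.836). MRPS34 and MRPL40 were above all controls on all 3 GapmeR 1 arrays, whereas MRPS12 overlapped. The largest value, 0.58 ± 0.32 at RPS15A, came from arrays at 8.03, 7.04 and 7.29 against 6.15, 7.10 and 7.37, with a wider spread among the controls than at any other member (adjusted p = 0.852). RPS15A passed the study's threshold when HCC1806 control 3 was left out (0.83, unadjusted p = 0.0328 by limma) or when GapmeR 1 array 2 was (0.79, unadjusted p = 0.0485 by limma).

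GapmeR 2 in HCC1806 left the members around the control mean, with 58 above and 62 below it and class medians between -0.01 and 0.005. RPS9, of the small subunit, read 5.61, 6.01 and 5.88 against 6.03, 6.10 and 6.35 on control arrays, a difference of -0.32 ± 0.14 with a limma adjusted p of 0.965. RPL39L, at -0.28 ± 0.19, and MRPL48, at -0.28 ± 0.14, had the next lowest values, and their adjusted p-values were 1.0 and 0.966. At RPL39L the GapmeR 2 arrays, at 5.70, 6.03 and 6.12, overlapped the control arrays, at 6.23, 6.45 and 6.01.

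In HCC1395 the members also stayed near the control arrays. With GapmeR 1, 85 of 120 differences were above 0, with a median of 0.03, and with GapmeR 2, 58 were, with a median of -0.003. On the 3 GapmeR 1 arrays the median deviation of the members was 0.10, 0.02 and -0.03. That of the brightest transcript clusters was 0.09, 0.03 and 0.003, so values above 0 were not limited to the members. MRPL17, which had one of the highest baseline differences, read 6.3, 6.12 and 6.12 with GapmeR 1 against 6.58, 6.59 and 6.36 on control arrays (-0.33 ± 0.12, limma adjusted p = 0.895), and 6.61, 6.33 and 6.49 with GapmeR 2. All 3 GapmeR 1 arrays were below the controls, and the GapmeR 2 arrays overlapped them. RPS28 read 9.85, 9.82 and 9.82 with GapmeR 2 against 10.22, 10.11 and 10.13 (-0.32 ± 0.11, limma adjusted p = 0.716), again without overlap, and between 9.96 and 10.23 with GapmeR 1. The largest value with GapmeR 1 was that of RPL31, 0.40 ± 0.24, from arrays at 4.54, 4.54 and 3.65 against 3.74, 3.96 and 3.81 (adjusted p = 0.938). RPL31 passed the study's threshold without GapmeR 1 array 3 (0.70, unadjusted p = 0.00267 by limma). Its signals here lay around the array medians. None of the 20 IDs nearest to that of its transcript cluster is on chromosome 2, where RefSeq places the gene.

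**Figure D5:**
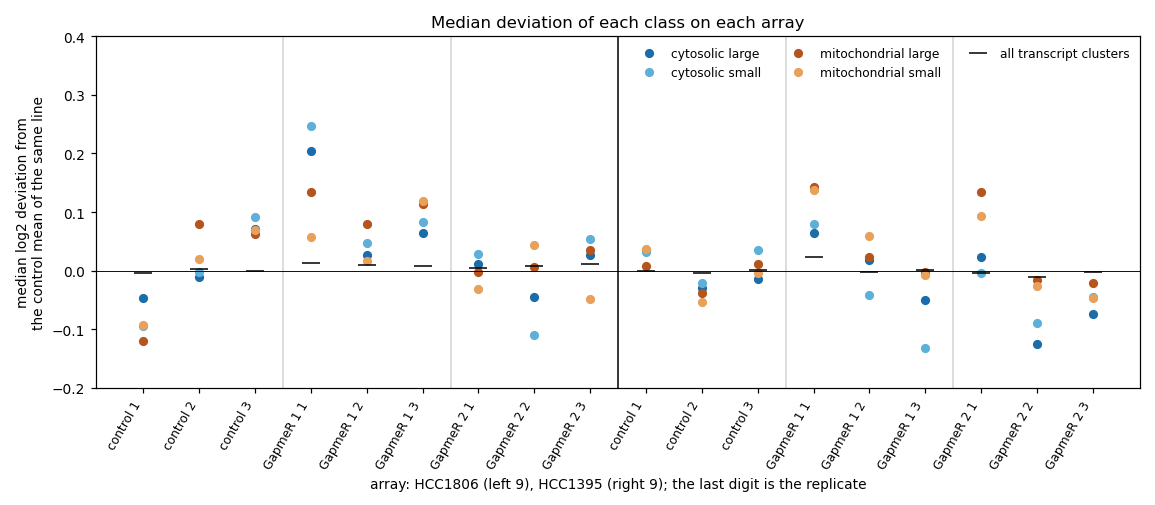
Median log2 deviation of each class of ribosomal protein genes from the control mean of the same line on each of the 18 arrays, HCC1806 on the left and HCC1395 on the right, with a dash for the median of all transcript clusters. Points lie between -0.13 and 0.25. The 3 HCC1806 GapmeR 1 arrays are above 0 in all 4 classes, as are HCC1806 control 3, HCC1395 control 1 and HCC1395 GapmeR 1 array 1. HCC1806 control 1 is below 0 in all 4, as are HCC1395 control 2, GapmeR 1 array 3 and GapmeR 2 arrays 2 and 3.

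With the GapmeRs set against each other, no member was called in either line at an adjusted p under 0.05, and over all transcript clusters 1 was called in HCC1806 (0.00187%) and 0 in HCC1395. At an unadjusted p under 0.05 there were 3 members in HCC1806 (5.9% of all transcript clusters) and 4 in HCC1395 (4.65%). In HCC1806 the smallest p was that of RPS9, which read 6.32, 6.29 and 6.23 with GapmeR 1 and 5.61, 6.01 and 5.88 with GapmeR 2, a difference of 0.45 ± 0.14 (limma adjusted p = 0.816). In HCC1395 it was that of MRPL10, at 0.38 ± 0.13 (adjusted p = 0.999). The 95% intervals of the difference between the GapmeRs lay within 1.6-fold for 114 members in HCC1806 and 118 in HCC1395.

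The difference between the lines in their mean response to both GapmeRs was tested over all 18 arrays, and no member was called (limma, smallest adjusted p 0.723) and no other transcript cluster either (0%), with 2 at an unadjusted p under 0.05 against 6.6% of all transcript clusters. These were MRPL17, where the HCC1806 response was 0.42 ± 0.18 above that of HCC1395, and RPS28, where it was 0.35 ± 0.16 above. Counting arrays, 18 members had all 6 GapmeR arrays above the control mean in HCC1806 and 2 all 6 below it, and in HCC1395 10 were above and 3 below. Over all transcript clusters the shares were 7.4% above and 6.4% below in HCC1806 and 8.81% and 8.17% in HCC1395, and the 6 arrays share 1 control mean. RPL39 was above on all 6 in both lines, with differences of 0.21 and 0.03 in HCC1806 and 0.17 and 0.27 in HCC1395 for GapmeR 1 and GapmeR 2. At its other, dimmer transcript cluster the mean difference over both GapmeRs was -0.01 ± 0.18 in HCC1806 and 0.16 ± 0.18 in HCC1395. No member was above on all 6 in 1 line and below on all 6 in the other.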

How the data were processed

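The authors deposited log2 signals of 53617 transcript clusters on 18 Affymetrix Human Gene ST arrays, made by RMA (background correction, quantile normalization and summary of probes) with the Affymetrix Expression Console, tools that the submitters' processing notes list with no version. No normalization was added. For the platform's genome build, the sources used here give nothing. Symbols came from the platform table, and chromosomes, neighbours and promoters from RefSeq (GRCh38.p14), by gene ID, for all 120 members. The number of arrays limits the precision.

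Groups followed the labels, 3 arrays each. Nothing in the labels says that these came from separate cultures, so p-values measure the spread between arrays, which may be technical. Two-sided tests by limma's lmFit and eBayes (version 3.58.1, R 4.3.3; Benjamini-Hochberg over all transcript clusters) were fitted on all 18 arrays for the baseline and the line difference, and on the 9 arrays of a line for the GapmeRs. The script was tested on simulated data. Deviations of same-numbered arrays of a line correlated at -0.007 to 0.111 (median 0.05), and those of differently numbered arrays at -0.099 to 0.076 (median -0.02). A weak pairing by replicate number is therefore possible. The main tests used no block, and the replicate number was run as a block among the alternatives.

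Members and lists were chosen with earlier results of these data known. Named are well-known members and paralogues, the 4 highest and 4 lowest called at baseline of cytosolic and of mitochondrial genes, the smallest p-values of each GapmeR comparison, and up to 3 genes of a list. MRPL52, MRPL57 and MRPL10 follow from counts or from that rule, and the genes called out for neighbours were named after their values were seen. Lists covered ribosome assembly, cytosolic and mitochondrial translation factors, mRNA control, paralogues, pseudogenes and cell markers. Alternatives changed the scaling, the filter on dim clusters, the variance model, the arrays fitted, the rule for several clusters of a gene and the members. Python 3.11.15, pandas 2.3.3 and matplotlib 3.10.9 made tables and figures.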

Additional observations from a re-analysis of the deposited data

How the results depend on the processing

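The count of members called at baseline, 85 in all, kept within 1.5 times of that value under every alternative run, between 70 (adjusted p under 0.01) and 98 (all 9 arrays of each line). With quantile normalization again it was 82 and centred on the brightest transcript clusters 81. With the replicate number as a block it was 82, and the block changed no GapmeR call, though RPL22 and RPS19 lost theirs at baseline. With only the compared groups in the fit it was 77, and 70 higher and 10 lower remained among the 113 members left when those with an ID off their chromosome were dropped, an alternative chosen after seeing the data, as was the fit of all 18 arrays for the GapmeRs. No GapmeR comparison gave a called member under any alternative run. Members past the study's threshold, 0 over the 4 comparisons, ranged from 0 to 1 when single arrays were left out. At baseline the cytosolic large median moved from 0.45 to 0.57 without the dimmest 40% of transcript clusters, a filter that leaves out RPL10L, and the mitochondrial large median from 0.63 to 0.77 without HCC1806 control 1. The uncalled difference of RPL10L, 0.03, changed sign to -0.0061 on centring by the brightest transcript clusters, and ran from -0.0442 to 0.16 when single control arrays were left out. Of the named genes, RPL22, RPS6, RPS19, MRPS12 and RPL29 lost their baseline call under at least 1 alternative, and RPL39L (0.33) and RPS27 (0.36) gained one with all 9 arrays of each line. Signals are relative within arrays, so a change in total RNA per cell is out of their reach.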

Other observations

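RPL41, whose protein is the shortest of the ribosome, has 5 transcript clusters on the array, and HCC1806 control arrays were above HCC1395 at all 5 by 0.79 to 1.33 on the log2 scale (limma adjusted p = 5.36e-05 at the brightest, and under 0.05 at the others). RPS18 gave 0.56 ± 0.13 at the cluster used and 1.11 ± 0.10 at its other cluster. The ID of the first lies among clusters of chromosome 3, while RefSeq places RPS18 on chromosome 6. MRPS16 (0.84 and 0.89) and RPL19 (0.73 and 0.70) gave like values at both of their clusters. In all, 7 members carried an ID with fewer than 10 of the 20 nearest IDs on the gene's own chromosome, namely RPS28, RPS27, RPS18, RPL12, RPL41, RPL10 and RPL31.

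Ribosomal protein pseudogenes with a symbol on the array numbered 29, and at baseline 5 were higher in HCC1806 and 6 lower, with a median difference of 0.16. Over all transcript clusters 14.4% were called higher and 14.9% lower. None was called with a GapmeR, and neither was any other transcript cluster (0%).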
